A study of Mus musculus with 20 samples.

Results

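Adipocyte precursors, the fibroblast-like stromal cells from which new fat cells form, were compared between a visceral and a subcutaneous fat depot of mice on a standard diet. The visceral group is perigonadal fat (VWAT) and the subcutaneous group is inguinal fat (SWAT). The comparison holds 8 of the 20 libraries of the series, numbers 1 to 4 of each depot. The number 5 library of each depot on standard diet was left out because it carried the depot markers of the other depot. All mice were female C57Bl6/J, 8 to 11 weeks old, and the labels name no transgene and no drug. Each library was made from tissue pooled from 3 mice, so a replicate is a pool. Cells were sorted by flow cytometry as CD45- and CD31-, positive for CD29, for CD34 and for Sca1, whether or not they carried CD24. A further 10 libraries, 5 VWAT and 5 SWAT pools of mice given a 60% lard high-fat diet (HFD) for 3 days, served as a depot comparison that shares no library with the one on standard diet.

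Visceral and subcutaneous fat form from different parts of the mesoderm, and their precursors go on expressing position-specific transcription factors in the adult. Wt1 and Tcf21 are known from visceral mesenchyme, while Tbx15, Irx1 and Shox2 are known from the subcutaneous depot and the limb. Perigonadal fat of females lies next to the ovary and uterus and is covered by mesothelium. Inguinal fat lies under the skin and surrounds the mammary gland.

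Reads counted on genes averaged 22.1 ± 13.5 M (M, 1000000 reads) in VWAT libraries and 26.6 ± 9.32 M in SWAT libraries (SD, standard deviation, n = 4 each), with a range of 14.4 to 42.3 M. Reads assigned to no feature made up 7.14% ± 2.93 in VWAT and 5.97% ± 2.55 in SWAT (exact two-sided permutation p = 0.571, 0.714 adjusted over 4 technical measures, where 4 against 4 cannot go below 0.0286). Spearman's correlation of gene expression, across 10795 genes, was 0.832 to 0.978 within VWAT, 0.880 to 0.973 within SWAT and 0.780 to 0.948 between the depots. VWAT 1 stood apart. Its Spearman's correlation with VWAT 2, VWAT 3 and VWAT 4 was 0.835, 0.883 and 0.832. With SWAT 1, SWAT 2, SWAT 3 and SWAT 4 it was 0.925, 0.905, 0.780 and 0.849. VWAT 1 had 42.3 M reads on genes and 3.36% in no feature, against 15.0 to 15.8 M and 6.33 to 9.80% in VWAT 2 to VWAT 4. The correlation of its deviations with the GC content of genes was -0.69, against 0.30 to 0.53 in the other 3 VWAT libraries, while SWAT 1 and SWAT 2 were at -0.54 and -0.48 and SWAT 3 and SWAT 4 at 0.52 and 0.20.

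The depot markers set the VWAT and SWAT libraries apart without overlap. Because these 5 genes decided which libraries entered, their values are a description and carry no test. Wt1, a zinc finger factor of visceral mesenchyme, had 227, 120, 189 and 82.6 CPM (counts per M counts on genes) in the VWAT libraries, against 3.90, 0.655, 0.772 and 0.0768 CPM in the SWAT libraries. Tcf21, a helix-loop-helix factor of the same lineage, had 57.3, 62.4, 52.6 and 47.2 CPM in VWAT, against 1.44, 0.231, 1.05 and 0.461 CPM in SWAT. The T-box factor Tbx15 lay the other way, at 0.592, 0, 0.0770 and 0.548 CPM in VWAT against 62.0, 64.1, 38.2 and 53.1 CPM in SWAT. Irx1, an Iroquois homeobox factor, was at 0.285 to 0.616 CPM in VWAT and 26.2 to 29.2 CPM in SWAT, and the homeobox factor Shox2 at 0 to 0.753 CPM in VWAT and 9.48 to 21.2 CPM in SWAT.

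The number 5 libraries went against their labels. The library labelled VWAT 5 had 0.154 CPM of Wt1 and 0.347 CPM of Tcf21, but 47.7 CPM of Tbx15, 32.3 CPM of Irx1 and 12.8 CPM of Shox2. The library labelled SWAT 5 had 80.2 CPM of Wt1 and 83.2 CPM of Tcf21, but 0.358 CPM of Tbx15, 0.470 CPM of Irx1 and 0.0671 CPM of Shox2. Leaving out the 5 markers, over the other 572 of the 577 genes described next, the library labelled VWAT 5 lay nearer to the SWAT mean for 564 genes (98.6%), and the library labelled SWAT 5 lay nearer to the VWAT mean for 554 (96.9%). With both libraries included by their labels, edgeR's quasi-likelihood test called 0 of 13151 genes (301 at an unadjusted p under 0.05, smallest Benjamini-Hochberg adjusted p = 0.999). All results below are from the 8 libraries unless other libraries are named.

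**Figure D1:**
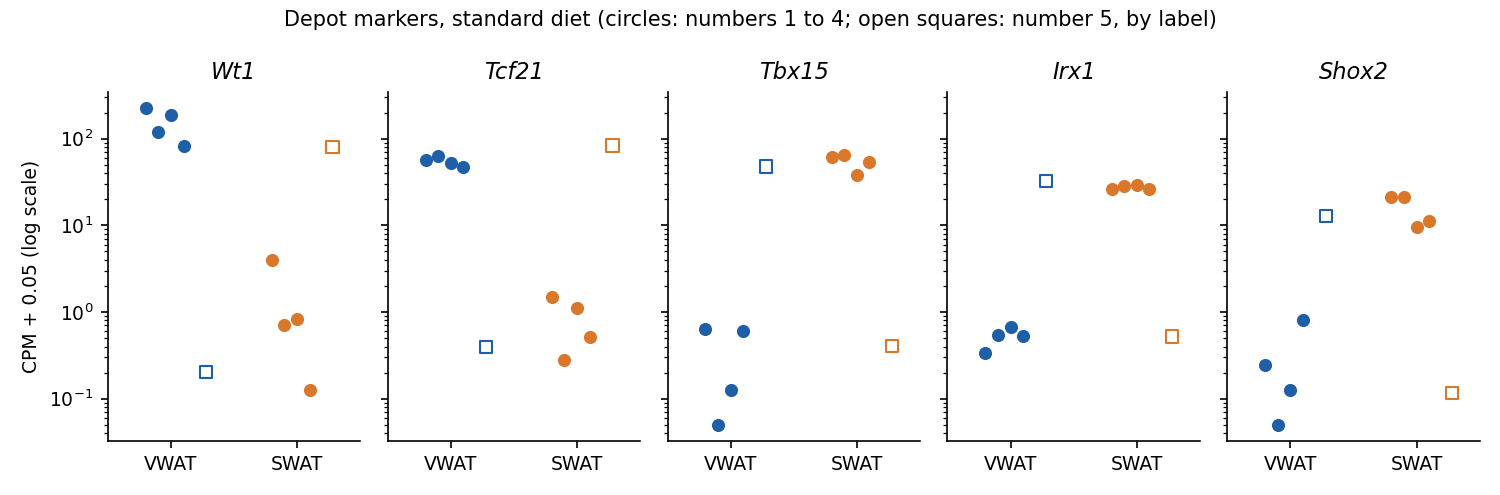
Level of the 5 depot markers in each standard-diet library (CPM + 0.05, log scale), VWAT left of SWAT. Circles are libraries 1 to 4 and open squares are the number 5 libraries placed by their labels. Each square lies with the circles of the other depot.

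Of 12875 genes tested, 577 (4.48%) differed between the depots, at an edgeR quasi-likelihood adjusted p under 0.05 (Benjamini-Hochberg), which is the threshold meant wherever a gene is said to be higher, lower, to rise or to fall. In VWAT 233 genes (1.81%) were higher and 344 (2.67%) were lower. All 577 differed by at least 1 on the log2 scale, and 400 by at least 2, of which 135 were higher and 265 lower. The median log2 fold change, VWAT over SWAT, was 2.22 among the higher genes, -3.30 among the lower and 0.04 over all tested. Without VWAT 1, 904 of 12782 genes were called, 370 higher and 534 lower. List counts given below without VWAT 1 come from that fit, where calls were more frequent over all genes. They are to be read beside these numbers and not beside 1.81% and 2.67%.

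**Figure D2:**
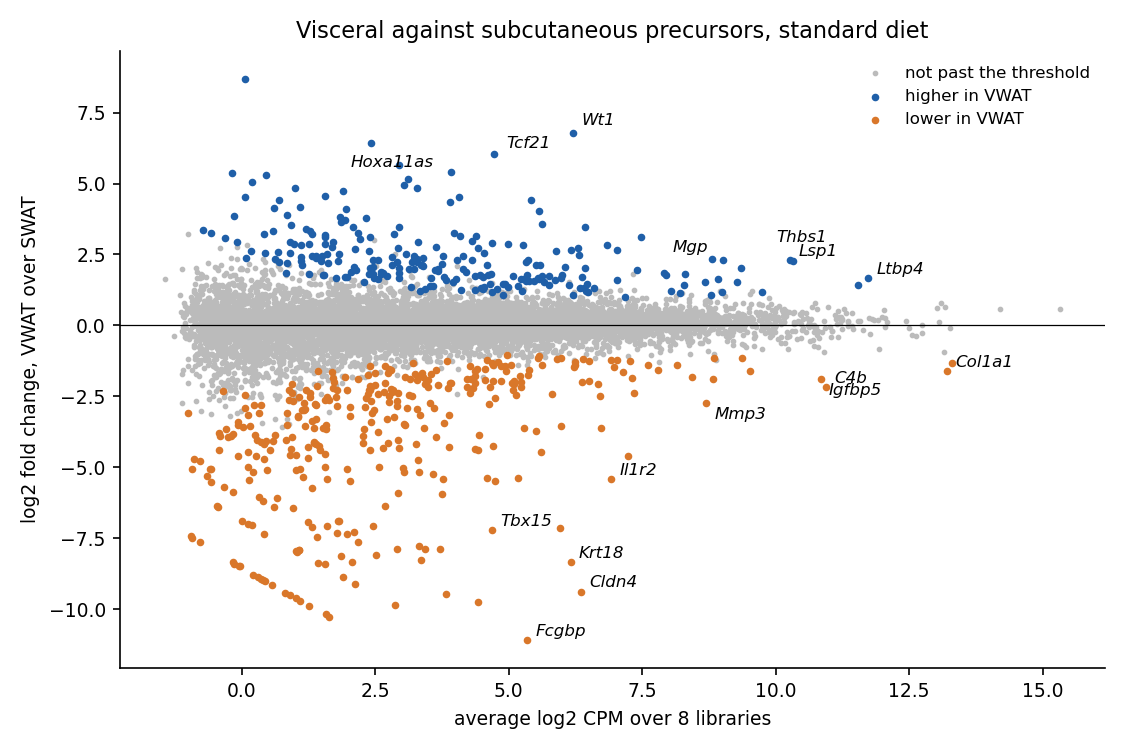
Log2 fold change of VWAT over SWAT against average log2 CPM, for 12875 genes. Blue marks the 233 genes higher and orange the 344 lower in VWAT, and the lower genes reach further from 0. The streak at the lower left holds genes with few or no reads in VWAT, whose fitted fold change depends on the prior count.

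Besides Wt1 and Tcf21, the 12 genes most raised in visceral precursors, among non-overlapping genes whose average log2 CPM reached 1, included a mesothelial gene, a hormone receptor, Hox genes and enzymes of lipid and drug metabolism. Rxfp2, the receptor of the relaxin-family hormone INSL3, had 13.2, 7.00, 17.5 and 27.1 CPM in VWAT, against 0.619, 0.347, 0.105 and 0.0768 CPM in SWAT. Every VWAT library lay over 10 times above every SWAT library, a log2 fold change of 5.67 ± 0.62 (SE, n = 4 each, edgeR adjusted p = 8.33e-05). Cyp2s1, a cytochrome P450 enzyme, had 64.2, 98.6, 106 and 80.01 CPM in VWAT, against 3.302, 2.50, 4.11 and 6.29 CPM in SWAT (log2 fold change 4.42 ± 0.37, edgeR adjusted p = 1.42e-05). Dapk2, a calmodulin-regulated kinase, averaged 34.5 ± 9.43 CPM in VWAT and 1.41 ± 0.743 CPM in SWAT. Eef1a2, the elongation factor form known from muscle and neurons, averaged 18.02 ± 9.29 CPM in VWAT and 0.466 ± 0.340 CPM in SWAT. Alox15, a lipoxygenase that oxidises polyunsaturated fatty acids, was at 1.71 to 11.8 CPM in VWAT and 0.154 to 0.351 CPM in SWAT. These 5 genes were past the threshold with log2 fold changes of 4.42 to 5.67.

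Ren1, which encodes renin, the enzyme that cleaves angiotensinogen, had 11.7, 5.13, 7.16 and 57.1 CPM in VWAT, against 0.516, 1.43, 0.527 and 0.230 CPM in SWAT. VWAT 4 held most of its mean (log2 fold change 4.84 ± 0.79, edgeR adjusted p = 0.00186). The depots did not overlap, which was a condition for naming Ren1 here. On HFD its log2 fold change was 2.05 (edgeR adjusted p = 0.0597).

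Other genes raised in VWAT had high counts in both depots and were chosen here after their values were seen. Lsp1, an actin-binding protein, had 1575, 2728, 2395 and 2002 CPM in VWAT, against 420, 392, 511 and 432 CPM in SWAT (log2 fold change 2.29 ± 0.29, edgeR adjusted p = 0.000262). Ltbp4, which binds latent TGF-beta and assembles elastic fibres, averaged 5526 ± 1306 CPM in VWAT and 1706 ± 396 CPM in SWAT (SD, n = 4 each; log2 fold change 1.67 ± 0.31, edgeR adjusted p = 0.00381).

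Most positional transcription factors of the subcutaneous depot were lower in visceral precursors. Of 12 subcutaneous identity factors tested, 0 were higher and 9 lower in VWAT, beside 2.67% of all genes. Leaving out the 3 that are depot markers, 6 of 9 were lower, with a median log2 fold change of -2.93. Members near 0 in VWAT, such as Irx2 and Lhx8, passed the filter on low counts only through SWAT libraries. They could hardly be other than lower, so these counts are a description. Tbx5, a T-box factor of the forelimb and heart, had 0.768, 0.407, 0.770 and 0.205 CPM in VWAT, against 23.0, 22.2, 17.9 and 18.1 CPM in SWAT (log2 fold change -5.17 ± 0.44, edgeR adjusted p = 1.42e-05). Irx2, a neighbour of Irx1 in the Iroquois family, had 0.110, 0, 0 and 0 CPM in VWAT, against 10.7, 10.1, 5.44 and 9.21 CPM in SWAT (log2 fold change -7.28 ± 0.69, edgeR adjusted p = 2.65e-05). On the VWAT side this fold rests on reads of VWAT 1 alone, so its size depends on the prior count. En1, an engrailed homeobox factor of the ventral body wall, averaged 2.33 ± 0.931 CPM in VWAT and 17.95 ± 1.22 CPM in SWAT. Lhx8, a LIM homeobox factor, had 3 reads over the 4 VWAT libraries and 262 over the SWAT libraries, a ratio of SWAT over VWAT of 70.3 (exact 95% interval 23.8 to 343, which like all such intervals and floors here covers counting error only). Irx5 and Msx1 were the other members lower, at log2 fold changes of -3.30 and -1.60. The call for Msx1 was lost without VWAT 2, VWAT 3, SWAT 2 or SWAT 3, each left out alone (edgeR adjusted p up to 0.0844), and 1 member was higher without VWAT 1. Pitx1, a homeobox factor of the hindlimb, lay the other way, at 11.2, 20.03, 20.1 and 46.0 CPM in VWAT against 5.13, 8.13, 11.7 and 9.52 CPM in SWAT (log2 fold change 1.46 ± 0.43, edgeR adjusted p = 0.0824). The depots overlapped in it, and DESeq2 called 1 member of the list higher.

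A pair of other factors of this kind lay outside the list or moved with it. Tbx1, a T-box factor of pharyngeal and muscle development, had 1 read over the VWAT libraries and 392 over the SWAT libraries, a ratio of SWAT over VWAT of 315 (exact 95% interval 56.3 to 12488). Leaving out the marker Tbx15, 2 of 6 T-box factors tested were lower, Tbx1 and Tbx5, beside 2.67% of all genes. Tbx1, with 1 read in VWAT, passed the filter on low counts only through SWAT libraries, so this count is a description. Lmx1b, which patterns the dorsal limb and was chosen after its values were seen, was at 0 to 0.488 CPM in VWAT and 6.49 to 10.4 CPM in SWAT (log2 fold change -5.04 ± 0.60, edgeR adjusted p = 0.000185).

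The visceral list was carried by its markers. Of 8 visceral identity factors tested, 2 were higher and 0 lower in VWAT, beside 1.81% higher and 2.67% lower over all genes. The 2 were Wt1 and Tcf21. Of the other 6, 0 were called (median log2 fold change 0.23), and over all 8 an unadjusted p under 0.05 gave 3 higher and 1 lower, while DESeq2 and limma-voom each called 2 higher and 0 lower. Gata6, a GATA factor of visceral mesoderm, was at 16.9 to 27.3 CPM in VWAT and 10.4 to 25.7 CPM in SWAT.

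Hox genes, which mark position along the body axis, mostly had no call, and those called were of the posterior groups. Of 24 tested, 3 were higher and 0 lower in VWAT, beside 1.81% and 2.67% of all genes. Hoxa11, known from the uterus and the limb, had 6.19, 7.00, 5.93 and 11.3 CPM in VWAT, against 0.258, 0.270, 0.491 and 0 CPM in SWAT (log2 fold change 4.73 ± 0.61, edgeR adjusted p = 0.000325). Hoxa11as, the antisense RNA of the same locus, averaged 31.6 ± 15.6 CPM in VWAT and 0.717 ± 0.150 CPM in SWAT. How strand was treated in the counting is not given in the sources used here, so reads of Hoxa11 and Hoxa11as cannot be told apart. Hoxd11 was at 1.08 to 2.69 CPM in VWAT and 0 to 0.231 CPM in SWAT (log2 fold change 3.84 ± 0.74). Hoxd9 was at 9.74 to 30.9 CPM in VWAT and 3.15 to 7.20 CPM in SWAT, and its call was lost without VWAT 4 or SWAT 2 (edgeR adjusted p up to 0.0626). Hoxc8, a trunk Hox gene, was at 3.62 to 8.38 CPM in VWAT and 9.02 to 16.8 CPM in SWAT (log2 fold change -1.24, edgeR adjusted p = 0.0985). Without VWAT 1, 1 Hox gene was lower.

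The genes most reduced in VWAT were those of secretory and mammary epithelium. Cldn4, a tight junction claudin, had 0.329, 0.407, 0.0770 and 0.137 CPM in VWAT, against 42.1, 80.3, 241 and 313 CPM in SWAT (log2 fold change -9.37 ± 0.79, edgeR adjusted p = 1.42e-05). The SWAT libraries differed more than 7 times among themselves, with SWAT 3 and SWAT 4 high and SWAT 1 and SWAT 2 low. Ltf, the milk and mucosal protein lactoferrin, showed the same order, at 0 to 0.0814 CPM in VWAT against 11.2, 13.0, 55.0 and 99.9 CPM in SWAT. Fcgbp, a mucus protein, had 3 reads over the VWAT libraries and 7245 over the SWAT libraries, a ratio of SWAT over VWAT of 1943 (exact 95% interval 665 to 9424).

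Several of these genes had no read in any VWAT library. Against a floor of 3 reads per library, Spint1, an epithelial protease inhibitor, was at least 33.7-fold lower in VWAT, at 0 CPM against 3.25, 3.08, 9.30 and 9.52 CPM in SWAT. Fgb, a fibrinogen chain, was at least 32.0-fold lower, Prss8, an epithelial serine protease, at least 25.97-fold, Tjp3, a tight junction protein, at least 23.5-fold, and Btn1a1, a protein of milk fat globules, at least 21.7-fold. With 1 to 3 reads over the VWAT libraries, Chi3l1, a chitinase-like secreted protein, had a ratio of SWAT over VWAT of 1143 (exact 95% interval 205 to 45186), Dmbt1, a mucosal glycoprotein, of 738, Atp6v1b1, a proton pump subunit, of 656, and Rab25, an epithelial GTPase, of 511. All 12 genes of this group were chosen for passing the threshold without overlap, so that they pass is no result. Their log2 fold changes on HFD, where tested, were also below 0. Those with few or no reads in VWAT passed the filter on low counts only through SWAT libraries. They could hardly be other than lower, so these values are a description.

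Epithelial markers as a list were lower throughout, and their level differed widely among SWAT pools. Of 17 markers, 12 were tested and all 12 were lower in VWAT, beside 2.67% of all genes (median log2 fold change -7.53, against 0.04 over all genes). Members near 0 in VWAT, such as Epcam and Csn3, passed the filter on low counts only through SWAT libraries. They could hardly be other than lower, so the count of 12 is a description. The summed level of the list was 3.53, 11.2, 6.16 and 10.3 CPM in the VWAT libraries, against 189, 310, 927 and 1158 CPM in the SWAT libraries. Epcam, the epithelial adhesion molecule, was at 0 to 0.205 CPM in VWAT and 10.3 to 34.3 CPM in SWAT, and Csn3, the milk protein kappa-casein, at 0 to 0.0684 CPM in VWAT and 3.02 to 8.52 CPM in SWAT. Csn2 and Wap, milk protein genes of the lactating gland, were at 0 in all 8 libraries, and Krt15, Trp63 and Elf5 were under the filter. In these bulk libraries fewer cells of a type and less RNA per cell cannot be told apart. The part of epithelial RNA in the other lower genes was not tested.

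The spread among SWAT libraries differed between lower genes. Over the 344 lower genes, the highest SWAT library lay a median of 2.60 times above the lowest. It lay at least 3 times above in 151 genes and under 2 times in 107. For the 12 epithelial markers the median was 5.68, with 11 at least 3 times and 0 under 2 times. Il1r2, the decoy receptor of interleukin-1, had 3.51, 7.49, 6.77 and 5.89 CPM in VWAT, against 181, 219, 290 and 301 CPM in SWAT (log2 fold change -5.42 ± 0.37, edgeR adjusted p = 2.49e-06). Adh7, an alcohol dehydrogenase that oxidises retinol, had 1.78, 1.79, 2.16 and 2.33 CPM in VWAT, against 34.0, 36.7, 55.7 and 36.4 CPM in SWAT (log2 fold change -4.37 ± 0.35, edgeR adjusted p = 1.13e-05). Mmp3, the matrix protease stromelysin-1, had 114, 100, 104 and 146 CPM in VWAT, against 712, 678, 831 and 812 CPM in SWAT (log2 fold change -2.73 ± 0.28, edgeR adjusted p = 3.89e-05). Il1r2 and Adh7 were chosen after their values were seen, for similar levels in the 4 SWAT libraries, so their evenness says nothing of other genes. The SWAT libraries of Il1r2 lay in the same order as the epithelial sum, over a narrower range.

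Mesothelial markers split by kind. Of 14 markers 10 were tested, and 3 were higher and 5 lower in VWAT, beside 1.81% higher and 2.67% lower over all genes. Upk3b, a uroplakin of the mesothelium, had 2.94, 23.1, 13.5 and 6.02 CPM in VWAT, against 0, 0.154, 0.316 and 0 CPM in SWAT (log2 fold change 6.42 ± 0.92, edgeR adjusted p = 0.000777). Msln, mesothelin, was at 1.18 to 4.64 CPM in VWAT and 0 to 0.176 CPM in SWAT. Lrrn4 was at 1.03 to 3.69 CPM in VWAT and had no read in SWAT, at least 16.7-fold higher against the floor. The 5 lower members were the keratins Krt18, Krt8, Krt19 and Krt7 and the cadherin Cdh1, which mammary epithelium also expresses, and of which 3 are on the epithelial list. Krt19 was at 3.51 to 18.9 CPM in VWAT and 107 to 535 CPM in SWAT. The part of mesothelial RNA in the other genes higher in VWAT was not tested.

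**Figure D3:**
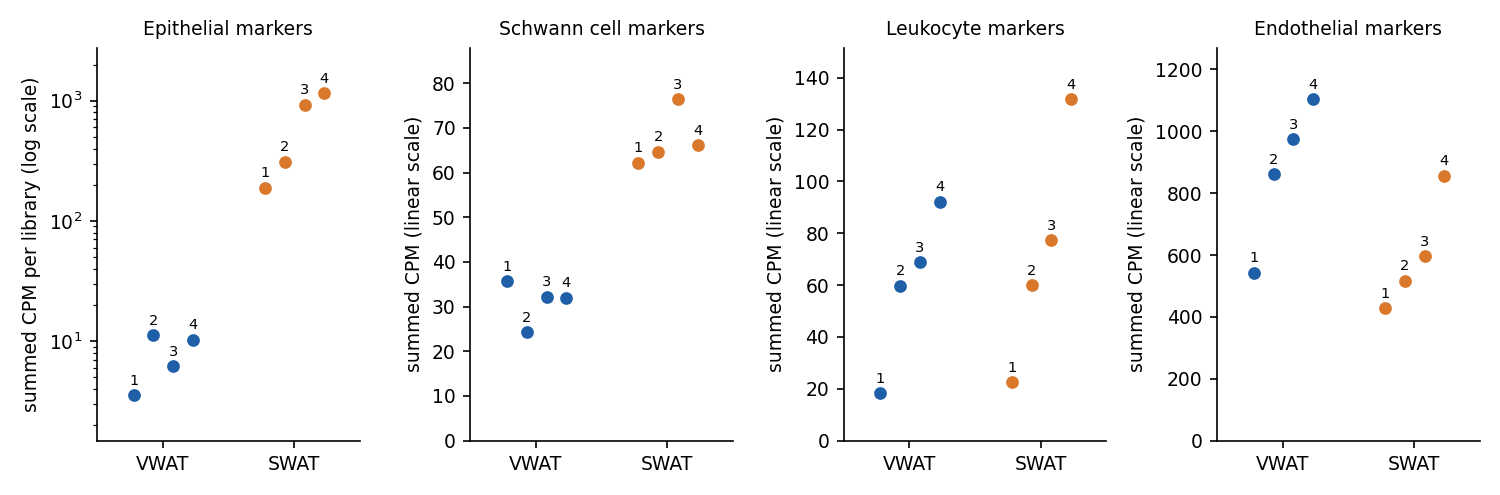
Summed CPM of marker lists in each library, VWAT left of SWAT, numbered 1 to 4 (epithelial panel on a log scale, the others linear from 0). Epithelial markers are at 3.53 to 11.2 CPM in VWAT and 189 to 1158 CPM in SWAT, Schwann cell markers do not overlap, and leukocyte and endothelial markers overlap.

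Markers of nerve, vessel wall, muscle and ovary each held 1 to 3 calls, beside 1.81% higher and 2.67% lower over all genes. Of 7 Schwann cell markers tested 3 were lower in VWAT, and the summed level was 24.3 to 35.7 CPM in VWAT and 62.2 to 76.5 CPM in SWAT. Mbp, a myelin protein, had 4.72, 9.28, 9.54 and 6.98 CPM in VWAT, against 33.7, 35.4, 41.3 and 26.6 CPM in SWAT (log2 fold change -2.20 ± 0.33, edgeR adjusted p = 0.000987). Sox10, the defining factor of the Schwann lineage, was at 0.0658 to 0.326 CPM in VWAT and 0.851 to 6.14 CPM in SWAT. Erbb3, the third, lost its call in 6 of the 8 fits with 1 library left out.

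Among 11 mural markers tested 1 was higher and 2 were lower. Des, the muscle filament desmin, had 85.7, 178, 173 and 238 CPM in VWAT, against 6.71, 7.86, 16.99 and 27.9 CPM in SWAT (log2 fold change 3.48 ± 0.49, edgeR adjusted p = 0.000607). Kcnj8, a potassium channel of pericytes, was at 0.274 to 1.39 CPM in VWAT and 8.67 to 33.8 CPM in SWAT, and its partner subunit Abcc9 at 7.41 to 21.8 CPM in VWAT and 38.9 to 98.5 CPM in SWAT. Actn3, an actinin of fast muscle, averaged 59.9 ± 22.5 CPM in VWAT and 8.05 ± 4.35 CPM in SWAT, while the other 3 of 4 skeletal muscle markers tested had no call. Without VWAT 1, 2 mural markers were higher.

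Of 4 ovary and reproductive tract markers tested 2 were higher in VWAT. Star, which carries cholesterol into mitochondria for steroid synthesis, was at 5.61 to 15.3 CPM in VWAT and 1.37 to 2.84 CPM in SWAT (log2 fold change 2.29 ± 0.42, edgeR adjusted p = 0.00417), and Amhr2, the receptor of anti-Müllerian hormone, lost its call in 6 of the 8 fits with 1 library left out.

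Leukocyte and endothelial markers, which the sort excludes, overlapped between the depots. Over all genes edgeR called 4.48% in either direction, so no call in lists this short says little. None of 13 leukocyte markers tested was called by edgeR, DESeq2 or limma-voom, and 1 was lower at an unadjusted p under 0.05. Their sum was 18.2 to 92.2 CPM in VWAT and 22.6 to 132 CPM in SWAT. None of 15 endothelial markers was called by any of the 3 tools, with 3 higher at an unadjusted p under 0.05, and their sum was 543 to 1105 CPM in VWAT and 429 to 857 CPM in SWAT. Without VWAT 1, edgeR called 2 endothelial markers higher, beside 370 of all 12782 genes in that fit.

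Secreted regulators of the Wnt pathway, which restrains fat cell formation, differed in both directions. Of 8 Wnt antagonists and R-spondins tested 3 were higher and 1 lower in VWAT, beside 1.81% higher and 2.67% lower over all genes. Rspo1, which amplifies Wnt signals, had 44.3, 64.6, 48.5 and 34.9 CPM in VWAT, against 6.63, 6.32, 9.20 and 2.92 CPM in SWAT (log2 fold change 2.91 ± 0.39, edgeR adjusted p = 0.00042). Frzb, a decoy that binds Wnt ligands, had 11.7, 9.28, 6.62 and 6.50 CPM in VWAT, against 1.21, 1.35, 0.527 and 0.461 CPM in SWAT (log2 fold change 3.24 ± 0.46, edgeR adjusted p = 0.000713). Sfrp1, a decoy of the same family, averaged 107 ± 28.4 CPM in VWAT and 40.3 ± 8.08 CPM in SWAT. Dkk2, a Dickkopf antagonist, was lower, at 0.462 to 2.87 CPM in VWAT and 10.6 to 24.8 CPM in SWAT.

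Of 11 Wnt ligands tested 1 was higher and 2 were lower, beside 1.81% higher and 2.67% lower over all genes. Wnt2 had 44.7, 38.8, 31.3 and 26.4 CPM in VWAT, against 122, 134, 173 and 124 CPM in SWAT (log2 fold change -1.98 ± 0.30, edgeR adjusted p = 0.000987). Wnt7b, at 0 to 0.616 CPM in VWAT and 2.04 to 14.9 CPM in SWAT, passed the threshold. Its SWAT libraries lay in the order of the epithelial markers, and the part of epithelial RNA in it was not tested. Wnt4, at 11.2 to 39.8 CPM in VWAT and 3.43 to 12.0 CPM in SWAT, lost its call in 6 of the 8 fits with 1 library left out (edgeR adjusted p up to 0.113).

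In the BMP and activin system, 2 of 26 genes were higher and 3 lower, beside 1.81% higher and 2.67% lower over all genes. Chrdl1, a BMP antagonist, had 16.8, 5.78, 9.62 and 9.65 CPM in VWAT, against 146, 178, 74.7 and 99.3 CPM in SWAT (log2 fold change -3.55 ± 0.40, edgeR adjusted p = 0.00011). Bmp7, a ligand known for its part in brown fat formation, averaged 20.2 ± 2.17 CPM in VWAT and 66.7 ± 17.5 CPM in SWAT (log2 fold change -1.73 ± 0.29, edgeR adjusted p = 0.00204). Inhbb, the subunit of activin B, had 27.6, 27.2, 28.2 and 39.9 CPM in VWAT, against 8.56, 6.01, 9.34 and 8.75 CPM in SWAT (log2 fold change 1.89 ± 0.31, edgeR adjusted p = 0.00172). The calls for Bmp6, higher, and Bmp3, lower, were lost in 5 and 3 of the 8 fits with 1 library left out, and 1 member was higher without VWAT 2, VWAT 3, SWAT 2 or SWAT 4.

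Growth factor and retinoid genes held 1 higher and 5 lower calls in 4 lists, beside 1.81% higher and 2.67% lower over all genes. Of 12 FGF genes 1 was higher, Fgf1, an acidic fibroblast growth factor, at 15.1 to 44.7 CPM in VWAT and 2.88 to 7.48 CPM in SWAT, and 1 was lower without VWAT 1. Of 13 IGF genes 2 were lower. Igfbp5, an IGF-binding protein, had 999, 827, 918 and 581 CPM in VWAT, against 4108, 3506, 2060 and 2591 CPM in SWAT (log2 fold change -1.88 ± 0.31, edgeR adjusted p = 0.00184). Igfbp2 was at 0 to 0.263 CPM in VWAT and 1.52 to 3.62 CPM in SWAT, and on HFD its adjusted p was 0.367 by edgeR. None of 7 PDGF ligands and receptors was called by edgeR, DESeq2 or limma-voom, with 1 higher at an unadjusted p under 0.05, and edgeR called 1 lower without VWAT 1.

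Of 18 retinoic acid genes 3 were lower in VWAT. Cyp26b1, which degrades retinoic acid, had 14.9, 10.8, 6.77 and 23.1 CPM in VWAT, against 44.2, 95.2, 37.8 and 48.8 CPM in SWAT (log2 fold change -2.02 ± 0.41, edgeR adjusted p = 0.00774). Crabp1, which binds retinoic acid in the cytoplasm, was at 0 to 0.154 CPM in VWAT and 1.07 to 3.08 CPM in SWAT. The nuclear receptor gene Rxrg lost its call in 4 of the 8 fits with 1 library left out. Without VWAT 1, 5 members were lower.

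Guidance genes, first known from growing axons, moved in both directions. Of 36 tested 4 were higher and 4 lower in VWAT, beside 1.81% higher and 2.67% lower over all genes. Nrp2, a semaphorin and VEGF co-receptor, had 36.8, 34.0, 43.9 and 34.1 CPM in VWAT, against 11.2, 13.6, 9.76 and 10.6 CPM in SWAT (log2 fold change 1.71 ± 0.28, edgeR adjusted p = 0.00175). Sema5a, a semaphorin, was also higher, at 27.1 to 42.1 CPM in VWAT and 6.39 to 17.3 CPM in SWAT. The ephrin receptors Epha3 and Epha4 were lower, by log2 fold changes of -2.49 and -2.41, and so were the ligand Ntn1, at 98.0 to 130 CPM in VWAT and 226 to 352 CPM in SWAT, and the semaphorin Sema4d. The calls for Slit2 and Plxna4, both higher, were lost in 4 and 5 of the 8 fits with 1 library left out, and 2 members were higher without VWAT 3, SWAT 2, SWAT 3 or SWAT 4.

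The fibrillar collagen I genes were lower in visceral precursors, and other matrix genes went both ways. Of 32 collagens tested 2 were higher and 4 lower in VWAT (median log2 fold change -0.26), beside 1.81% higher and 2.67% lower over all genes. Col1a1 had 5380, 5985, 3837 and 4468 CPM in VWAT, against 16353, 13323, 18175 and 11972 CPM in SWAT (log2 fold change -1.62 ± 0.30, edgeR adjusted p = 0.00372). Col1a2, the other chain of collagen I, had 7106, 6943, 5416 and 5234 CPM in VWAT, against 16686, 13695, 16829 and 13640 CPM in SWAT (log2 fold change -1.31 ± 0.28, edgeR adjusted p = 0.0110), and was at 0.0663 without VWAT 3. In both chains every VWAT library lay below every SWAT library, and the depots did not overlap in 8.53% of all genes tested. Lack of overlap is common among called genes, so it adds little to the call. Col9a2, a cartilage collagen chain, had 3 reads over the VWAT libraries and 267 over the SWAT libraries, a ratio of SWAT over VWAT of 71.6 (exact 95% interval 24.2 to 349). Its SWAT libraries, at 1.01, 1.39, 4.32 and 5.30 CPM, lay in the order of the epithelial markers, and it was not tested on HFD. The part of epithelial RNA in Col9a2 was not tested. Col13a1, a transmembrane collagen, lost its call without VWAT 3 (edgeR adjusted p = 0.0578), and without that library 2 collagens were lower.

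Col6a5, a chain of beaded collagen VI, had 107, 111, 112 and 46.3 CPM in VWAT, against 9.003, 6.74, 2.98 and 4.53 CPM in SWAT (log2 fold change 4.02 ± 0.42, edgeR adjusted p = 5.29e-05). Col8a2, a network-forming collagen, averaged 30.3 ± 5.36 CPM in VWAT and 3.13 ± 1.17 CPM in SWAT (log2 fold change 3.25 ± 0.38, edgeR adjusted p = 0.000146).

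Of 54 matrix glycoproteins and proteoglycans tested, 6 were higher and 3 lower in VWAT, beside 1.81% higher and 2.67% lower over all genes. The thrombospondins, matricellular proteins that bind TGF-beta or cell receptors, went opposite ways. Thbs1 had 3827, 1364, 2134 and 1663 CPM in VWAT, against 839, 346, 185 and 519 CPM in SWAT (log2 fold change 2.27 ± 0.45, edgeR adjusted p = 0.00704). Thbs2 had 230, 138, 150 and 138 CPM in VWAT, against 849, 464, 420 and 560 CPM in SWAT (log2 fold change -1.80 ± 0.31, edgeR adjusted p = 0.0028). Cilp, a cartilage matrix protein, averaged 793 ± 358 CPM in VWAT and 155 ± 43.7 CPM in SWAT, and Matn2, a matrilin, 145 ± 48.8 CPM in VWAT and 22.1 ± 11.5 CPM in SWAT.

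Mfap4, an elastic fibre protein, averaged 401 ± 77.3 CPM in VWAT and 108 ± 38.6 CPM in SWAT, and Sparcl1, a secreted relative of SPARC, 976 ± 204 CPM in VWAT and 335 ± 83.9 CPM in SWAT. Fbln1, a fibulin, lost its call in 6 of the 8 fits with 1 library left out. The CCN family genes Wisp2 and Cyr61 were lower. Wisp2, a Wnt-induced CCN protein of mesenchymal cells, had 19.4, 10.6, 17.01 and 21.2 CPM in VWAT, against 146, 137, 190 and 353 CPM in SWAT (log2 fold change -3.61 ± 0.39, edgeR adjusted p = 7.51e-05). Cyr61, known as a target of the YAP coactivator, averaged 387 ± 150 CPM in VWAT and 1162 ± 206 CPM in SWAT. Without VWAT 1, 5 members of this list were lower. Of 30 matrix proteases and inhibitors, 1 was higher, the metalloproteinase Adamts16, and 1 lower, Mmp3, beside 1.81% higher and 2.67% lower over all genes. Without VWAT 1, 3 were higher and 4 lower, without SWAT 3, 2 and 2, and without VWAT 2, VWAT 3 or VWAT 4, 2 were lower.

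Genes of fat cell formation held 1 call. Of 23 adipogenic factors tested 1 was higher and 0 were lower in VWAT, beside 1.81% higher and 2.67% lower over all genes. Leaving out VWAT 1 gave 2 higher and 2 lower. Gata2, a GATA factor that holds precursors back from differentiating, had 13.9, 48.0, 33.6 and 26.6 CPM in VWAT, against 1.01, 1.89, 2.32 and 0.537 CPM in SWAT (log2 fold change 4.34 ± 0.52, edgeR adjusted p = 0.000179). Pparg, the master regulator of adipogenesis, had 5.90, 12.3, 4.85 and 8.42 CPM in VWAT, against 14.4, 13.3, 12.1 and 9.52 CPM in SWAT, with overlap (log2 fold change -0.67 ± 0.36, edgeR adjusted p = 0.585). None of 14 mature adipocyte genes was called by edgeR, DESeq2 or limma-voom, with 1 lower at an unadjusted p under 0.05, and edgeR called 1 lower without VWAT 1.

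Markers of precursor subsets held 1 higher and 2 lower calls, beside 1.81% higher and 2.67% lower over all genes. Of 15 genes of DPP4+ interstitial progenitors, an early precursor stage, 2 were lower in VWAT, Wnt2 and Bmp7, and 4 without VWAT 1. Of 19 genes of committed preadipocytes and CD142+ stromal cells, 1 was higher, Mgp, an inhibitor of calcification and BMP signals. It had 1043, 941, 813 and 841 CPM in VWAT, against 120, 170, 344 and 85.3 CPM in SWAT (log2 fold change 2.30 ± 0.41, edgeR adjusted p = 0.0035). Without VWAT 1, 2 of the 19 were higher and 1 lower.

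The genes of the positive sort markers were present in both depots. Cd34 averaged 1771 ± 125 CPM in VWAT and 1802 ± 74.6 CPM in SWAT, and Itgb1, which encodes CD29, 361 ± 188 CPM in VWAT and 280 ± 88.7 CPM in SWAT. Ly6a, which encodes Sca1, averaged 1349 ± 244 CPM in VWAT and 2187 ± 538 CPM in SWAT (log2 fold change -0.72 ± 0.29, edgeR adjusted p = 0.308). Cd24a, with or without whose product cells were taken, had 4.67, 0.651, 2.62 and 1.44 CPM in VWAT, against 9.05, 11.9, 11.1 and 17.3 CPM in SWAT (log2 fold change -2.35 ± 0.51, edgeR adjusted p = 0.0136; 0.0523 without SWAT 4). Epithelial cells also express Cd24a, and epithelial markers moved with it across the depots. Their part in it was not tested.

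Of the excluded markers, Ptprc, which encodes CD45, averaged 1.65 ± 0.901 CPM in VWAT and 1.498 ± 1.43 CPM in SWAT, and Pecam1, which encodes CD31, 35.7 ± 14.3 CPM in VWAT and 26.8 ± 11.1 CPM in SWAT. The precursor receptors Pdgfra and Pdgfrb were at log2 fold changes of 0.61 and -0.37 (edgeR adjusted p = 0.436 and 0.888), and the preadipocyte gene Dlk1 at -0.35.

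Steroid receptors and their targets held 1 call in 13, beside 1.81% higher and 2.67% lower over all genes. It was Areg, an EGF receptor ligand, which was lower and lost its call without VWAT 3, VWAT 4, SWAT 3 or SWAT 4. Leaving out VWAT 1 gave 2 lower members. Esr1, the estrogen receptor, had 106, 35.8, 49.0 and 70.7 CPM in VWAT, against 67.8, 72.0, 28.9 and 41.2 CPM in SWAT (log2 fold change 0.33 ± 0.38, edgeR adjusted p = 0.980). Its targets Pgr and Greb1 were at log2 fold changes of -0.76 and -0.48 (edgeR adjusted p = 0.884 and 0.982), with overlap between the depots.

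Proliferation, respiration and early stress genes had no call by edgeR, beside 4.48% of all genes in either direction. At that share, no call in lists this short says little. None of 16 mitosis genes was called by edgeR or limma-voom, with 1 higher at an unadjusted p under 0.05 and by DESeq2. Mki67, the proliferation antigen, was at 0.137 to 7.26 CPM in VWAT and 0.281 to 2.08 CPM in SWAT. None of 27 oxidative phosphorylation genes was called by any of the 3 tools or had an unadjusted p under 0.05. None of 21 immediate early genes was called by edgeR, while DESeq2 called 1 higher, an unadjusted p under 0.05 gave 2 higher and 1 lower, and edgeR called 1 higher without VWAT 2.

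Interferon response genes were lower in VWAT in part of their list. Type I interferons act through factors such as STAT2 and IRF9, which bind the interferon-stimulated response element in promoters of genes for antiviral enzymes and sensors. Of 25 members tested, 0 were higher and 13 (52.0%) lower in VWAT, beside 1.81% and 2.67% of all genes, with a median log2 fold change of -1.13. With 1 library left out at a time, 9 to 15 members were lower. DESeq2 called 13 lower and limma-voom 12.

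The promoters of 3 lower members are shown because each holds GAAANNGAAA, the repeat of this element, which not all members do. They are from RefSeq on GRCm38.p6, 250 bases before to 50 bases after the start, 5′ to 3′ on the strand of the gene, with each match on either strand (GAAANNGAAA or TTTCNNTTTC) in capitals. Isg15 lies at chr4:156200769-156201068 on the minus strand, Ifit1 at chr19:34640639-34640938 on the plus strand and Oas3 at chr5:120777610-120777909 on the minus strand.
Isg15: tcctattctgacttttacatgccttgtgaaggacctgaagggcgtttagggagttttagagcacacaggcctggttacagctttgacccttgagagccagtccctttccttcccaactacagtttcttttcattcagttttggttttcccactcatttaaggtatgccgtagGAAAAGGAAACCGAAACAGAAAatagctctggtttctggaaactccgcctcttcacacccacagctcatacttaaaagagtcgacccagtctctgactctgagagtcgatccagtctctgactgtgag
Ifit1: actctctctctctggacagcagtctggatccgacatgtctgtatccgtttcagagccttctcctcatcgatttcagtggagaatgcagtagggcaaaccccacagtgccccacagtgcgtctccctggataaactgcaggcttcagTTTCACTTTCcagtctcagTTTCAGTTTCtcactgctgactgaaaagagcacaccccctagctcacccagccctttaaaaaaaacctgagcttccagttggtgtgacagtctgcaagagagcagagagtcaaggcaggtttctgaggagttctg
Oas3: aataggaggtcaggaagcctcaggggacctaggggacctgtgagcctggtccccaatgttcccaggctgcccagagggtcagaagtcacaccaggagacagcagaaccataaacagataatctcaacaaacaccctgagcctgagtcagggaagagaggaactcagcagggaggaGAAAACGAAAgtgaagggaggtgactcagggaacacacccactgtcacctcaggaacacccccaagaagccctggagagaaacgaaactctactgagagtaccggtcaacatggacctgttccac
Isg15 held 3 matches that overlap each other, Ifit1 2 and Oas3 1. Of the 13 lower members 9 had a promoter in the table, and 7 of the 9 (77.8%) held a match. Among the 12 members tested and not called, 10 had a promoter and 5 held a match, and among all 27025 genes with a promoter 1079 (3.99%) did. A match is a description of the sequence and not a measured binding site.

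The lower members include antiviral enzymes, sensors and a regulator. Usp18, which removes ISG15 from proteins and dampens interferon signals, had 7.96, 15.3, 10.3 and 13.1 CPM in VWAT, against 61.0, 53.2, 66.6 and 70.01 CPM in SWAT (log2 fold change -2.45 ± 0.30, edgeR adjusted p = 0.000215). Isg15, the ubiquitin-like modifier itself, had 10.1, 13.0, 7.70 and 7.53 CPM in VWAT, against 62.8, 28.4, 38.6 and 42.4 CPM in SWAT (log2 fold change -2.17 ± 0.34, edgeR adjusted p = 0.0013). Oas3, a sensor of double-stranded RNA, had 0.483, 0.163, 0.616 and 1.30 CPM in VWAT, against 12.7, 4.86, 7.06 and 13.1 CPM in SWAT (log2 fold change -3.89 ± 0.56, edgeR adjusted p = 0.000784). In these 3 genes the depots did not overlap, beside 1098 of all 12875 genes tested (8.53%). Lack of overlap is common among called genes, with 215 of the 233 higher genes, so it adds little to the call.

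Ifit1, which binds foreign RNA caps, had 11.9, 16.7, 10.6 and 11.3 CPM in VWAT, against 83.1, 52.4, 27.1 and 34.3 CPM in SWAT (log2 fold change -1.95 ± 0.36, edgeR adjusted p = 0.00403). Its relative Ifit3 was at 7.16 to 10.1 CPM in VWAT and 20.3 to 42.8 CPM in SWAT. Mx1, a dynamin-like antiviral GTPase, was at 0 to 0.407 CPM in VWAT and 2.21 to 7.43 CPM in SWAT, and Oas2 at 2.11 to 4.23 CPM in VWAT and 9.41 to 40.3 CPM in SWAT. Oasl2, a relative of the OAS enzymes, was at 36.8 to 46.5 CPM in VWAT and 104 to 137 CPM in SWAT.

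Of the transcription factors, Irf7, which amplifies interferon production, had 55.1, 84.5, 77.0 and 74.9 CPM in VWAT, against 270, 140, 252 and 234 CPM in SWAT (log2 fold change -1.64 ± 0.30, edgeR adjusted p = 0.00331). Stat2 was at 37.0 to 47.5 CPM in VWAT and 81.0 to 120 CPM in SWAT. Irf9, at a log2 fold change of -0.42, had no call (edgeR adjusted p = 0.799). Irf1, which answers interferon-gamma, was at 625 to 3042 CPM in VWAT and 1558 to 2433 CPM in SWAT, with overlap. The calls for Stat2, Oas1a, Mx2 and Rsad2 were lost in 4 to 5 of the 8 fits with 1 library left out (edgeR adjusted p up to 0.124).

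**Figure D4:**
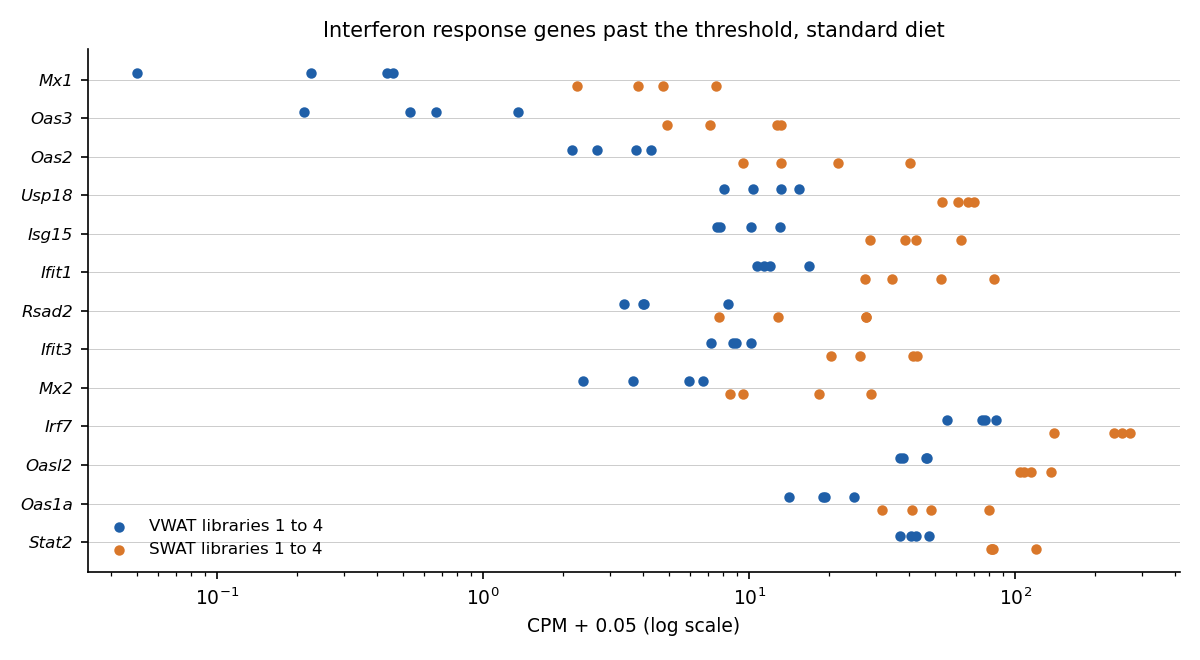
CPM + 0.05 (log scale) of the 13 interferon response genes lower in VWAT in each library, VWAT above SWAT for each gene, ordered by log2 fold change. All 13 passed the threshold, and in each the VWAT points lie left of the SWAT points, except for an overlap in Rsad2. The depots did not overlap in 8.53% of all genes tested, and lack of overlap is common among called genes.

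Among complement genes 0 of 20 were higher and 3 lower in VWAT, beside 1.81% higher and 2.67% lower over all genes. C4b, a component of the classical pathway, had 225, 993, 820 and 1035 CPM in VWAT, against 2952, 2990, 3931 and 3659 CPM in SWAT (log2 fold change -2.17 ± 0.41, edgeR adjusted p = 0.00449). C2, its partner in the C3 convertase, had 16.8, 58.3, 61.2 and 33.6 CPM in VWAT, against 108, 154, 259 and 164 CPM in SWAT (log2 fold change -2.05 ± 0.42, edgeR adjusted p = 0.00858). The third was C4a, a near-identical copy of C4b, so the split of reads between them is uncertain, and its call was lost in 4 of the 8 fits with 1 library left out. C3, the central component, averaged 24069 ± 7134 CPM in VWAT and 15950 ± 2035 CPM in SWAT (log2 fold change 0.57 ± 0.30, edgeR adjusted p = 0.573).

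Of 25 chemokine genes 1 was higher and 3 were lower, beside 1.81% higher and 2.67% lower over all genes. Cxcl13, which attracts B cells, had 15.3, 15.9, 17.01 and 10.3 CPM in VWAT, against 48.5, 99.9, 42.8 and 68.9 CPM in SWAT (log2 fold change -2.15 ± 0.33, edgeR adjusted p = 0.00126). Ccl19, which guides T cells and dendritic cells, was at 0.958 to 2.39 CPM in VWAT and 6.94 to 10.1 CPM in SWAT. Cxcl15, an epithelial chemokine, had no read in VWAT and 1.14 to 4.68 CPM in SWAT, at least 13.0-fold lower. Ccl11, the eosinophil chemokine eotaxin, was at 333 to 699 CPM in VWAT and 109 to 230 CPM in SWAT, and its call was lost without VWAT 3, SWAT 3 or SWAT 4 (edgeR adjusted p up to 0.0883), while 2 members were higher without VWAT 1.

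Of 23 inflammatory cytokine and NF-kB target genes 1 was higher and 3 were lower, beside 1.81% higher and 2.67% lower over all genes. Saa3, an acute phase protein of fat tissue, was at 3.46 to 6.58 CPM in VWAT and 0.614 to 1.51 CPM in SWAT (log2 fold change 2.22 ± 0.46, edgeR adjusted p = 0.00966). Lcn2, the iron-binding lipocalin that mammary epithelium also makes, had 1.51, 0.977, 0.770 and 2.74 CPM in VWAT, against 7.33, 15.6, 35.1 and 58.1 CPM in SWAT. Its SWAT libraries lay in the order of the epithelial markers, and the part of epithelial RNA in it was not tested. Il18 and Csf3 lost their calls in 6 of the 8 fits each with 1 library left out. Without VWAT 1, 6 members were lower, and without VWAT 2, VWAT 3, VWAT 4, SWAT 1 or SWAT 4, 1 was.

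The depot differences were read again in the 10 HFD libraries, which no marker rule chose. On HFD 2767 of 13659 genes (20.3%) passed the threshold, 1331 (9.74%) higher and 1436 (10.5%) lower in VWAT, and 4695 with the replicate number as a block. Of the 577 genes called on standard diet, 543 were tested on HFD and 516 of these (95.03%) were called in the same direction, 221 higher and 295 lower. None was called in the opposite direction, all 543 had the same sign, and 27 did not pass. The 516 genes were 19.8% of the 2601 genes called on HFD that were tested on both diets. With the replicate block on HFD, 527 of the 543 (97.1%) were called in the same direction and 16 did not pass, and the 527 were 11.9% of 4430 genes called. Across 12766 genes the log2 fold changes on both diets had a Pearson correlation of 0.84 and a Spearman correlation of 0.62, as a description over genes, which are not independent replicates.

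On HFD 3 of the lists are given here, those with the most lower genes on standard diet, so they are no sample of all lists. All 12 epithelial markers were lower, beside 10.5% of all genes on HFD, with the same limit from the filter for members near 0 in VWAT. All 13 interferon response genes called on standard diet were lower, and 22 of 25 in all. Of 12 subcutaneous identity factors 11 were lower, among them the 9 called on standard diet, of which 3 are the depot markers. The limit from the filter holds here too for members near 0 in VWAT. Outside these 3 lists, 6 of 24 Hox genes were higher and 5 lower on HFD, and 2 of 19 complement genes were higher and 8 lower. The epithelial sum on HFD was 2.67 to 9.26 CPM in VWAT and 63.7 to 384 CPM in SWAT. Usp18 on HFD had a log2 fold change of -2.72, Isg15 of -2.14 and Irf7 of -2.40.

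**Figure D5:**
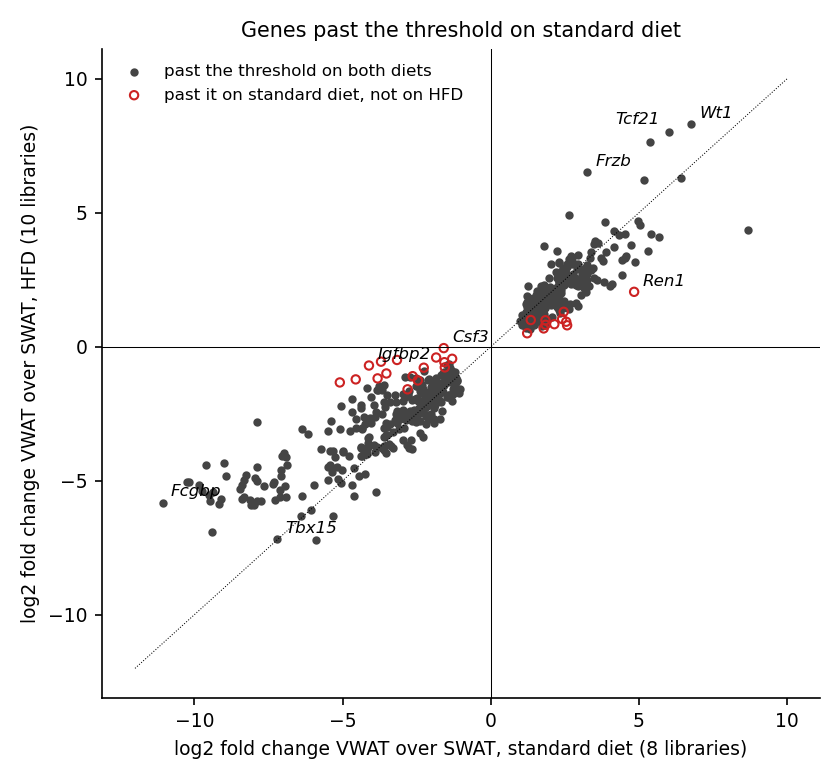
Log2 fold change of VWAT over SWAT on HFD (5 against 5 libraries) against that on standard diet (4 against 4), for the 543 genes called on standard diet and tested on both. Filled points (516) passed the threshold on both diets, open red points (27) did not pass it on HFD, and the dotted line marks equal values. Values beyond about -9 on the horizontal axis belong to genes with few or no reads in VWAT.

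The difference between the diets was tested itself, as a diet by depot interaction over 18 libraries. Frzb was the gene called out of 14360 (0.00696%), with 438 at an unadjusted p under 0.05. It averaged 8.53 ± 2.48 CPM in VWAT and 0.887 ± 0.459 CPM in SWAT on standard diet (SD, n = 4 each), and 25.6 ± 9.004 CPM in VWAT and 0.286 ± 0.100 CPM in SWAT on HFD (n = 5 each). Its log2 fold change between the depots was 3.24 on standard diet and 6.52 on HFD, an interaction of -3.27 ± 0.52 (edgeR adjusted p = 0.0439). The call held in 4 of the 18 fits with 1 library left out (edgeR adjusted p of 0.0185 to 0.346), and was lost with DESeq2 size factors (edgeR adjusted p = 0.0532).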

How the data were processed

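PolyA RNA of sorted precursors was sequenced as stranded, single-end reads of 75 bases, per the labels' protocols. The authors deposited 1 table of raw counts per gene for 20 libraries, made with TopHat and HTSeq on mm9 per the submitters' processing notes. The sources used here name neither the gene annotation nor the strand setting of the counting. The deposited table held 33929 rows. The 5 HTSeq summary rows (25.6 to 37.0% of the counts of the 8 libraries) and 25 rows whose names had become date numbers (0.0598 to 0.118%) entered neither library sizes nor tests, leaving 33899 genes.

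Counts were filtered with filterByExpr, scaled by TMM and tested with edgeR 4.0.16 (quasi-likelihood, R 4.3.3), with Benjamini-Hochberg adjustment over all genes tested and a threshold of 0.05. CPM values use TMM library sizes. The 2 number 5 libraries were left out on their depot markers. limma-voom (limma 3.58.1) and DESeq2 1.42.0 were alternatives, beside other size factors, no filter, a GC correction, a covariate, a replicate block and 1 library left out at a time. The fits were tested on simulated data.

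Nothing in the labels ties a VWAT library to a SWAT library of equal number through shared mice. On HFD, deviations of same-numbered libraries correlated at 0.59, 0.48, 0.11, 0.20 and 0.18, all over 0.1, so the blocked count is given there too. VWAT 1 and VWAT 2 correlated most with the SWAT library of their own number. The others did not, with 0.23 for VWAT 3 with SWAT 4, 0.41 for VWAT 4 with SWAT 3 and 0.21 for VWAT 5 with SWAT 3. The numbers are thus not shown to be pairs on HFD. The p-values measure the spread between pools of 3 mice.

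The genes named are the 12 of largest fold change in each direction (average log2 CPM of at least 1, no overlap between the depots), the 3 of smallest p in each direction of each list, genes of the sort and of precursors, and genes with an interaction past the threshold. A member of the interferon list is not reported here by name. The members and lists were chosen with earlier results of these data known. Promoters are from a RefSeq table on GRCm38.p6, matched by symbol.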

Additional observations from a re-analysis of the deposited data

Results flagged for a closer look

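Some genes had a library far from the other 3 of its group, by Dixon's test on groups that reached 1 CPM. Chance gives such a library in about 1 in 20 groups. Many groups were looked at, and the total flagged was not set against that share. The flags are thus a description, and none is taken as more than chance. VWAT 4 was high for Ren1 at 57.1 CPM (others 5.13 to 11.7), Greb1 at 20.1 CPM (others 5.05 to 7.20) and Inhbb at 39.9 CPM (others 27.2 to 28.2). It was low for Epha4 at 0.548 CPM (others 1.92 to 2.17) and Col6a5 at 46.3 CPM (others 107 to 112).

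VWAT 1 was high for Bmp3 at 1.12 CPM (others 0 to 0.0684), Fgf1 at 44.7 CPM (others 15.1 to 18.01), Epha3 at 5.44 CPM (others 1.63 to 2.26), Thbs2 at 230 CPM (others 138 to 150) and Rsad2 at 8.27 CPM (others 3.34 to 3.97). It was low for Fbln1 at 2114 CPM (others 5263 to 5864). Among SWAT libraries, SWAT 2 was high for Epha4 at 13.9 CPM (others 6.88 to 7.61), SWAT 1 for Stat2 at 120 CPM (others 81.0 to 82.4) and SWAT 3 for Adh7 at 55.7 CPM (others 34.0 to 36.7).

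The depot difference of Frzb differed between the diets by a log2 interaction of -3.27, a test of the difference itself.

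The libraries left out held the markers of the other depot. The library labelled SWAT 5 had 80.2 CPM of Wt1 and 83.2 CPM of Tcf21, and the library labelled VWAT 5 had 47.7 CPM of Tbx15, 32.3 CPM of Irx1 and 12.8 CPM of Shox2.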

How the results depend on the processing

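The count of 577 genes became 0 with all 10 standard-diet libraries by label and 0 with 20 libraries in 1 fit (1009 at an unadjusted p under 0.05), 1214 with 18 libraries in 1 fit, 871 with a GC correction, and 420 to 904 with 1 library left out. It stayed within 1.5 times under DESeq2 size factors (578), no filter (753), DESeq2 (816), limma-voom (551) and the covariate (633). With the replicate block it was 1012, and 1062 with a GC correction and the block together, a pair of choices added after seeing the data. The pairing check gave correlations of 0.68, -0.33, 0.17 and 0.14 for same-numbered standard-diet libraries, which do not pair them.

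The HFD count of 2767 was 1544 with 18 libraries in 1 fit, 4695 with the replicate block and 2159 to 3169 with 1 library left out. The interaction count of 1 was 0 with 20 libraries by label, 3 with DESeq2, 0 with DESeq2 size factors and 0 to 1 with 1 library left out. The cause of these changes was not tested.

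Of 129 named genes called, 106 kept the call in all 17 settings without the number 5 libraries, 23 lost it in at least 1 and 0 changed sign. With the number 5 libraries none of them was called in 1 fit (lowest edgeR adjusted p = 0.570). Signs changed for 6 genes with no call. With 1 library left out, log2 fold changes were -0.035 to 0.53 for Esr1, -1.07 to 0.091 for Greb1, -0.42 to 1.39 for Mki67, -0.081 to 0.022 for Cd34, -0.076 to 0.54 for Itgb1 and -0.26 to 0.93 for Ptprc, which was at -0.25 with the covariate. Depth limits genes with few reads in a depot. Where a depot held at most 3 reads over all its libraries, folds are given as bounds or ratios of reads. Genes with few reads above that limit, such as Irx2, have a fitted fold change that depends on the prior count.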
